A study of Caenorhabditis elegans with 9 samples.

Results

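The cytosolic ribosome is built from ribosomal RNA and a fixed set of proteins, most of which are encoded by 1 gene each in *Caenorhabditis elegans*. Transcripts of 61 of these genes were measured as entries of their own in the deposited expression table, which holds 40127 entries that name a gene. They are 35 *rpl* genes, named for proteins of the large subunit, 24 *rps* genes, named for proteins of the small subunit, and the stalk genes *rla-0* and *rla-1*. Genes were taken by their symbol alone, without regard to their values. A further 18 ribosomal protein genes, such as *rpl-5*, *rps-3* and *rla-2*, were merged with a neighboring gene into joined entries, whose single value cannot be divided among the genes, and these were kept apart.

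RNA came from whole gravid adult hermaphrodites of 3 genotypes with 3 replicates each: N2 (wild type), *daf-1*(*m40*), and a double mutant of *daf-1*(*m40*) with *daf-3*(*mgDf90*), called *daf-1*; *daf-3* below. All populations were grown at 16 °C to the L4 larval stage on *E. coli* NA22 and then held at 25 °C for about a day. *daf-1* encodes the type I receptor of the DAF-7 TGFβ pathway, and *daf-3* encodes the Co-SMAD that active signaling suppresses, so both mutant strains carry the same *daf-1* allele and the double mutant also lacks *daf-3*. There was no *daf-3* single mutant, the animals carried their germline and embryos, and the study calls the replicate numbers batches.

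Ribosomal protein mRNAs are among the most abundant messages of growing animal cells. Proteins of the small subunit take part in decoding, those of the large subunit surround the peptidyl transferase center and the exit tunnel, and the acidic stalk recruits translation factors. In worms, as in other animals, some introns of these genes hold small nucleolar RNAs (snoRNAs), which guide the modification of ribosomal RNA. The X chromosome is largely silent in the worm germline, while the autosomes are not.

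Values are FPKM, fragment numbers normalized to the length of the transcript and to the mapped fragments of the library. The FPKM values of a library add up to totals between 747592 and 958333, and the double mutant replicates 1 and 2 had the highest totals, so each comparison is also given after scaling every library to the same total. *daf-1* was measured at 21.6 to 23.7 FPKM in N2 and at 12.8 to 14.5 FPKM in the 6 libraries that carry the *daf-1* allele. *daf-3* was listed at 0 to 0.0147 FPKM in the 3 double mutant libraries and at 18.8 to 22.5 FPKM in the other 6. *daf-1*; *daf-3* replicate 3 stood apart from the other libraries and was left out by the study. In that library the single entry *Y53H1C.11* reached 43891.5 FPKM. Values from the other 8 libraries therefore come first, in which the double mutant has n = 2, and values from all 9 stand beside them. Nothing further is said of how the populations of a genotype were kept apart, so p-values measure the spread between these libraries.

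Ribosomal protein transcripts stood near the top of the range in every genotype. The median of the mean levels of the 60 tested genes was 1678 FPKM, against 9.91 FPKM for all tested entries, and 50 of the genes had a mean above 1000 FPKM. Of the 100 highest entries of the table, 38 were these genes and 14 more were joined entries that name a ribosomal protein gene. The highest mean over 9 libraries was that of *rpl-39*, a very small protein of the exit tunnel, at 3283 FPKM. It was followed by *rpl-24.1* at 3112 FPKM, *rps-8* at 3063 FPKM, *rpl-17* at 2821 FPKM and *rpl-21* at 2814 FPKM.

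The low end of the range held 3 genes that have a partner with the same number. *rpl-22*, which has none, had a mean of 369 FPKM over 9 libraries, *rpl-11.2* 383 FPKM and *rpl-25.1* 469.5 FPKM. *rpl-24.2*, which is related to an assembly factor of the large subunit known from yeast, had a mean of 116 FPKM and was the lowest of the tested genes, 28.3-fold below *rpl-39*. *rpl-42* was listed between 0 and 0.280 FPKM in each library, below the 0.5 FPKM that an entry had to reach in at least 2 libraries to be tested. All other 60 genes were tested.

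**Figure D1:**
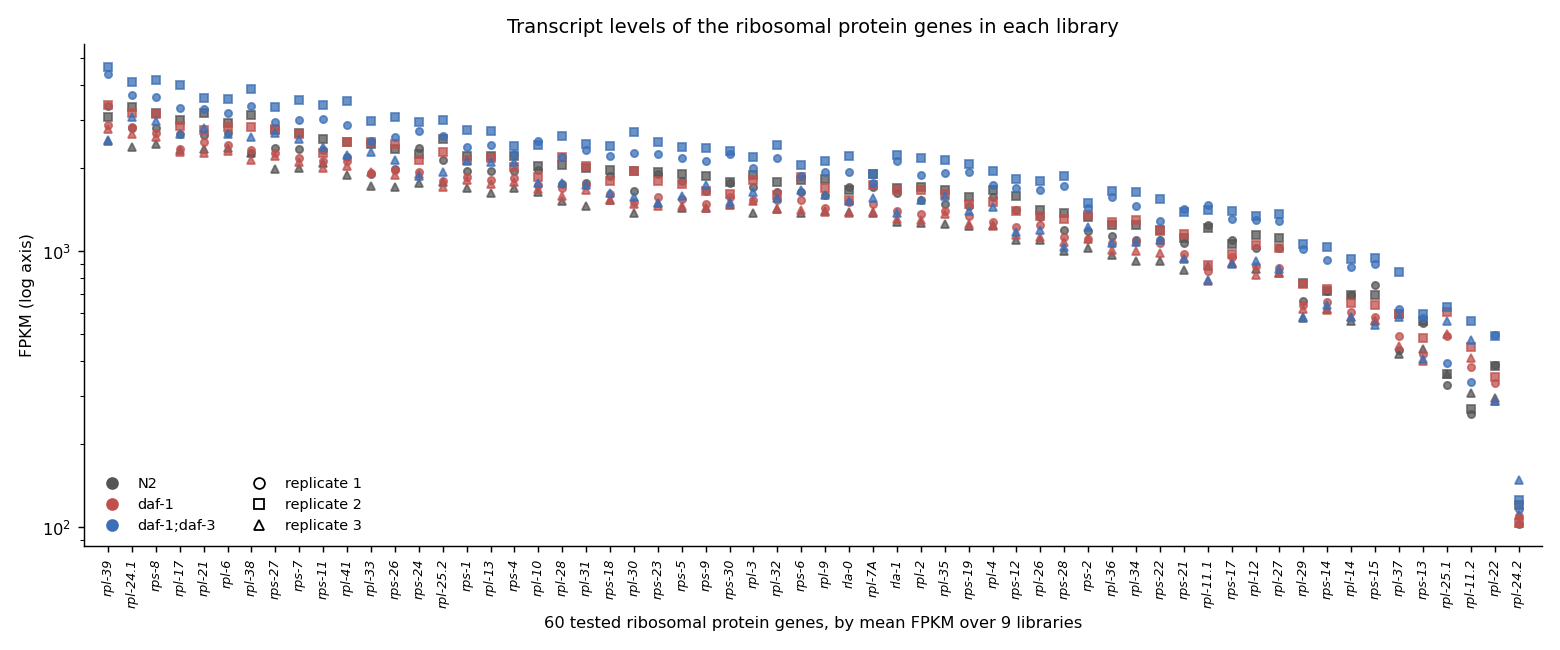
Transcript levels of the 60 tested ribosomal protein genes, ordered by their mean. Each point is the FPKM value of 1 library on a log axis, with color for the genotype and shape for the replicate. Most genes lie within a narrow band above 1000 FPKM, and *rpl-24.2* stands alone at the low end with a mean of 116 FPKM.

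The order of the genes by level was nearly the same in every library. Spearman's rho over the 60 genes was between 0.960 and 0.996 for the 36 pairs of libraries, which share the same genes and gene lengths. The coefficient of variation (CV) of a gene over the 9 libraries was 11.7 to 26.5%, with a median of 18.4%, and it fell to a median of 10.5% after scaling. *rps-4* varied least, with a CV of 11.7%, or 4.49% after scaling, and *rpl-11.2* varied most, with 26.5%, or 23.9% after scaling. The level of a gene was not ordered by the length of its coding sequence, which ran from 153 bp in *rpl-39* to 1203 bp in *rpl-3* (Spearman's rho 0.0944 over 59 genes, across genes that are not independent replicates).

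In the WBcel235 annotation, 60 of the 61 genes have a position, and the symbol *rpl-41* has none. Chromosome I held 18 of them, 30.0% against 14.8% of the tested entries with a position, and chromosome X held 2, 3.33% against 16.8%. The genes on X are *rpl-11.2* (X: 2241738 to 2242618) and *rpl-25.1* (X: 4715178 to 4715796). Their partners with the same number lie on autosomes, *rpl-11.1* at V: 3585312 to 3586064 and *rpl-25.2* at I: 8329062 to 8329647. In 10 of the 60 genes (16.7%) an annotated snoRNA lies inside the gene on the same strand, against 0.796% of the 19985 protein-coding genes and 0.310% of those no longer than the longest ribosomal protein gene, 1734 bp. These genes hold 14 snoRNAs in all, 3 of them in *rpl-6* (III: 7208447 to 7209789).

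Summed, the 61 genes held 10.7 to 13.9% of all FPKM in a library. Their share was 11.5, 12.4 and 10.7% in N2 replicates 1, 2 and 3, which gives a mean of 11.5% (SD 0.827, n = 3). It was 10.9, 12.1 and 10.9% in *daf-1* mutants (mean 11.3%, SD 0.684, n = 3). In *daf-1*; *daf-3* double mutants it was 12.5, 13.9 and 10.8% (mean 12.4%, SD 1.55, n = 3; without replicate 3, 13.2%, SD 0.946, n = 2). Double mutant replicates 1 and 2 had the largest shares, while their replicate 3 lay among the low libraries of the other genotypes. That position depended on the total, which holds *Y53H1C.11*. With the 10 highest entries taken out of each library, the share of double mutant replicate 3 was 12.1%. It then lay above all N2 libraries, whose shares were 10.9 to 11.9%, and above *daf-1* replicates 1 and 3, and below *daf-1* replicate 2 with 12.76%. Double mutant replicate 1 had 12.78% in that count, close to *daf-1* replicate 2, and double mutant replicate 2 had 14.3%. Ribosomal protein genes among those 10 entries were taken out of the share as well. There were 1, 3 and 1 of them in N2 replicates 1, 2 and 3 and 0 in double mutant replicate 3. These shares thus do not cover the same genes in each library, which lowers those of N2, and their order cannot be read as that of the full set. Summed FPKM ranged from 80220 in N2 replicate 3 to 133034 in double mutant replicate 2. That last library gave the highest value of 54 of the 61 genes, and N2 replicate 3 gave the lowest value of 39.

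**Figure D2:**
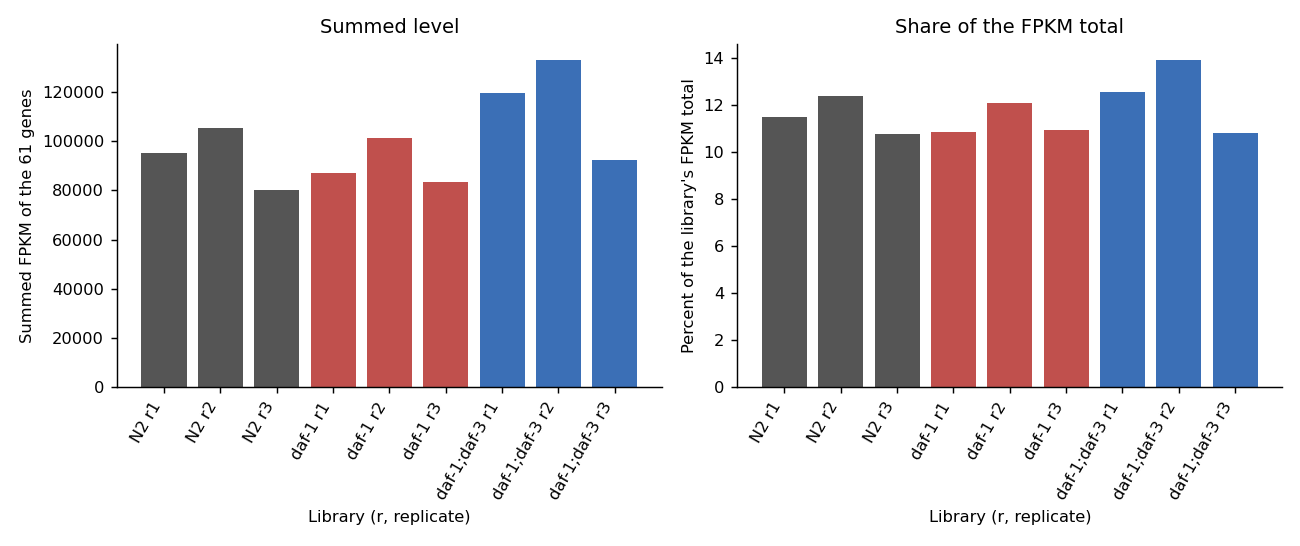
Summed level of the 61 ribosomal protein genes in each library, as FPKM (left) and as percent of the library's FPKM total (right). Bars are single libraries, colored by genotype. Double mutant replicates 1 and 2 are highest in both panels, with shares of 12.5 and 13.9%, and replicate 3 of the same strain has 10.8%.

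Between *daf-1* mutants and N2, the ribosomal protein genes that passed the test were the pair on the X chromosome. *rpl-25.1* and *rpl-11.2* rose in *daf-1* mutants, by a log2 difference of 0.61 (SE 0.165, limma adjusted p = 0.0298) and 0.57 (SE 0.172, adjusted p = 0.0390). These were 2 of the 60 tested genes, and none was lower, where 13% of all tested entries were called higher and 15.6% lower. The median log2 difference of the 60 genes was -0.06, against 0.02 over all entries. No gene reached a 2-fold difference, which 7.22% of entries did together with the adjusted p.

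*rpl-25.1* encodes a counterpart of yeast L25, a protein at the exit of the nascent chain tunnel. Its values were 327, 359 and 360.4 FPKM in N2 replicates 1, 2 and 3 and 492, 603 and 503 FPKM in *daf-1* mutants. All 3 *daf-1* libraries lay above all 3 N2 libraries. *rpl-11.2* encodes a protein of the family that binds 5S ribosomal RNA in the central protuberance. It was measured at 257, 269.5 and 306 FPKM in N2 and at 379.6, 449 and 410.3 FPKM in *daf-1* mutants, again without overlap. No other ribosomal protein gene was higher in every *daf-1* library than in every N2 library. The share of all entries that separated in this way was not counted.

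Levels of both genes were uneven among the double mutant libraries. *rpl-25.1* stood at 393, 629 and 558 FPKM in replicates 1, 2 and 3, and *rpl-11.2* at 337, 559 and 479 FPKM. Replicate 1 lay between N2 and *daf-1* mutants for both genes, and replicates 2 and 3 lay at or above the *daf-1* levels. Neither gene passed the test between *daf-1* and *daf-1*; *daf-3* (log2 difference 0.09, 95% interval -0.33 to 0.51 for *rpl-25.1*, and -0.08, interval -0.51 to 0.36 for *rpl-11.2*).

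Neither autosomal partner passed the test between *daf-1* and N2 before scaling. *rpl-11.1* was measured at 1244, 1216 and 888 FPKM in N2, 852, 896 and 779 FPKM in *daf-1* mutants, and 1473, 1414 and 789 FPKM in double mutants. In each of the 3 batches the *daf-1* value was below the N2 value, and the difference of -0.39 (SE 0.139) had an adjusted p of 0.0620. *rpl-25.2* was measured at 2145, 2548 and 1778 FPKM in N2 and 1792, 2283 and 1712 FPKM in *daf-1* mutants (log2 difference -0.16, SE 0.168, adjusted p = 0.480). After scaling to the same total, *rpl-11.1* was called lower in *daf-1* mutants, together with *rps-13*, a small subunit protein of a bridge between the subunits, so that 2 genes were higher and 2 lower. Among all entries 12.2% were then called higher and 15.2% lower. The same 4 genes were called with the replicate number as a block, where 16.7% of entries were called higher and 19.7% lower. After quantile normalization, which gives each library the same distribution of values, 2 genes were called higher and 6 lower, where 9.72% and 17.3% of entries were. In each of these fits the share of the 60 genes called was below that of all entries. The median difference of the 60 genes within batches 1, 2 and 3 was -0.13, -0.07 and 0.04.

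A ratio of paralogs within a library does not depend on scaling. The *rpl-11.2* to *rpl-11.1* ratio was 0.207, 0.222 and 0.344 in N2 replicates 1, 2 and 3, and 0.446, 0.502 and 0.527 in *daf-1* mutants. Averaged on the log2 scale, it was 1.95-fold higher in *daf-1* mutants (arithmetic means 0.491, SD 0.0416, against 0.258, SD 0.0755, n = 3). The *rpl-25.1* to *rpl-25.2* ratio was 0.153, 0.141 and 0.203 in N2 and 0.274, 0.264 and 0.294 in *daf-1* mutants, 1.70-fold higher when averaged on the log2 scale. Neither ratio overlapped between these genotypes. Exact permutation of the libraries (two-sided) gave p = 0.1 for each with n = 3, the smallest value that 3 against 3 libraries allow, and 0.45 after adjustment over the 9 ratio tests made.

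Double mutants spread over the range of both other genotypes, with ratios of 0.229, 0.396 and 0.607 for the first pair and 0.150, 0.211 and 0.289 for the second. The ratio of *rpl-24.2* to *rpl-24.1*, both of which lie on chromosome I, was 0.0399 in N2 (SD 0.00564), 0.0370 in *daf-1* mutants (SD 0.00357) and 0.0369 in double mutants (SD 0.00993, n = 3 each), and the libraries of the genotypes overlapped. Replicate 3 gave the highest *rpl-11.2* to *rpl-11.1* ratio and the highest *rpl-25.1* to *rpl-25.2* ratio of each genotype.

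**Figure D3:**
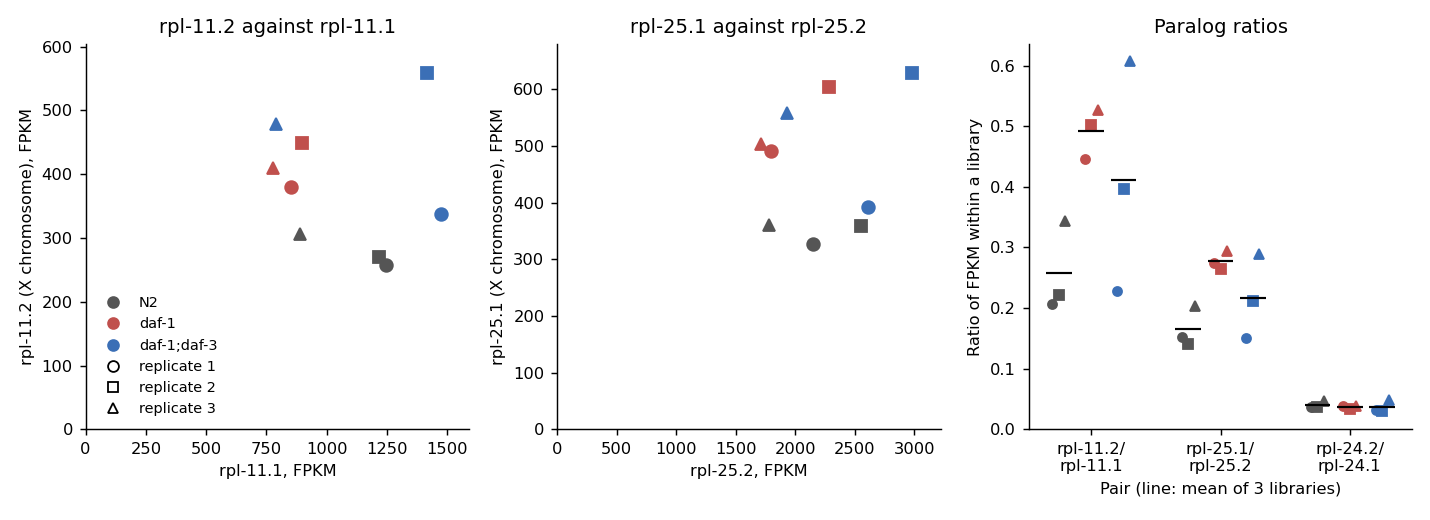
Duplicated ribosomal protein genes. The first and second panels plot the FPKM value of the X-linked gene against that of its autosomal partner, 1 point for each library, and the third panel gives the ratio within each library with the mean of 3 libraries as a line. All 3 *daf-1* libraries lie above all 3 N2 libraries in the ratio of *rpl-11.2* to *rpl-11.1* and of *rpl-25.1* to *rpl-25.2*, and the genotypes overlap for *rpl-24.2* to *rpl-24.1*.

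The calls for *rpl-25.1* and *rpl-11.2* rested on every library of the comparison but one. Both were lost when N2 replicate 1, N2 replicate 2 or any 1 of the *daf-1* libraries was left out, in fits that called 6.35 to 8.06% of entries higher. Without N2 replicate 3, 2 genes were called higher and 3 lower, where 18.4% and 19.7% of entries were. With all 9 libraries no ribosomal protein gene was called between *daf-1* and N2 before or after scaling, where 9.31% and 13.5% of entries were. At an unadjusted p below 0.05 there were 2 of the 60 genes with limma in each case, against 33% and 34.5% of entries. Markers of several tissues also differed between these genotypes. Body wall muscle markers were higher in *daf-1* mutants for 6 of 7 tested genes, with summed levels of 1328 to 1490 FPKM in N2 and 2036 to 2488 FPKM in *daf-1* mutants. Intestine markers were higher for 5 of 10 and lower for 2, with sums of 1896 to 2478 FPKM and 3302 to 4237 FPKM. Germline markers were lower for 7 of 9, with sums of 2347 to 2951 FPKM and 2070 to 2326 FPKM, and no marker in these lists was at 0 in all libraries. The median of the 1747 tested entries on X was a log2 difference of 0.18, against 0.04 for the 8611 on autosomes. The share called higher was no greater on X than the 14.2% on autosomes, while 6.18% on X and 15.7% on autosomes were called lower. Between double mutants and N2 in 8 libraries, the median was -0.13 on X and 0.02 on autosomes. In that comparison *rpl-11.2* differed by 0.65, without passing the test. The part of the tissues and of the X chromosome in the levels of *rpl-25.1* and *rpl-11.2* was not tested. In RNA of whole animals, fewer cells of a type and less RNA per cell cannot be told apart.

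*daf-1* mutants had lower ribosomal protein transcript levels than *daf-1*; *daf-3* double mutants across most of the set. In the 8 libraries, 39 of the 60 genes were lower in *daf-1* mutants and none was higher, where 19.3% of all entries were called lower and 17.7% higher. The calls covered 21 of 34 large subunit genes, 16 of 24 small subunit genes and both stalk genes. The median log2 difference was -0.49, against 0.00 over all entries, and 59 of the 60 genes were below 0, *rpl-25.1* being the exception. No gene reached a 2-fold difference, which 12.7% of entries did.

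The largest difference was that of *rpl-11.1*, at -0.78 on the log2 scale (SE 0.155, adjusted p = 0.00953), with the values given above. *rps-15*, a protein of the small subunit head, was measured at 579, 639 and 563 FPKM in *daf-1* mutants and at 901, 944 and 541 FPKM in double mutants (log2 difference -0.64, SE 0.135, adjusted p = 0.0114). *rpl-22*, a protein on the surface of the large subunit, was measured at 335, 352 and 287 FPKM against 499, 495 and 288 FPKM (-0.62, SE 0.139, adjusted p = 0.0136). For each of these genes the double mutant replicates 1 and 2 were above all *daf-1* libraries, and replicate 3, which is not in the fit, lay within or below them.

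The same order held for the other genes with the smallest p. *rpl-14* differed by -0.57, *rps-14* by -0.56, *rpl-32* by -0.60, *rps-17* by -0.52 and *rps-30* by -0.55 on the log2 scale, with adjusted p from 0.0111 to 0.0137. *rpl-29* had a difference of -0.64, the third largest. *rps-30* encodes a ribosomal protein that is made as a fusion to a ubiquitin-like protein, and *rps-14* a protein of the small subunit platform. The stalk gene *rla-0* was measured at 1506, 1528 and 1373 FPKM in *daf-1* mutants and at 1943, 2216 and 1517 FPKM in double mutants (-0.50, SE 0.134, adjusted p = 0.0227). The stalk gene *rla-1* was measured at 1405, 1662 and 1306 FPKM against 2132, 2224 and 1372 FPKM (-0.59, SE 0.159, adjusted p = 0.0237). *rpl-24.2* differed least among the genes below 0 after *rpl-11.2* (-0.19, SE 0.0894, adjusted p = 0.114).

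Scaling to the same FPKM total reduced the difference. The median of the 60 genes became -0.24 while that of all entries moved to 0.24, 19 genes were called lower and none higher, and 2.97% of entries were called lower and 22% higher. All 19 were among the 39. Quantile normalization left 5 of the 39 called, with a median of -0.08, and called *rpl-7A* and *rps-6* higher. Of all entries 14.5% were then lower and 12.4% higher. That method makes the highest values equal across libraries, and 38 of these genes were among the 100 highest entries. It can thus even out a shift shared by the set, and cannot show whether the set moved together. With all 9 libraries no gene was called before or after scaling, with a median of -0.34 and -0.14, where 1.67% and 2.06% of entries were called. At an unadjusted p below 0.05 there were 6 and 2 of the 60 genes with limma, against 20.6% and 17.8% of entries. With the replicate number as a block, 52 genes were called lower, the 39 among them, where 16.6% of entries were. Without double mutant replicate 1 no gene was called, and 1.73% of entries were lower. Without double mutant replicate 2, 10 genes were lower and 1 was higher, where 19.8% and 18.1% of entries were. The number called lower was 7 without *daf-1* replicate 3 (5.34% of entries) and 12 without *daf-1* replicate 1 (13.6%), and the median was between -0.56 and -0.41 in all fits that left out 1 of the 8 libraries.

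The median difference within each batch was -0.45, -0.39 and -0.15 for batches 1, 2 and 3, and -0.21, -0.20 and 0.02 after scaling. Over all entries the scaled medians were 0.24, 0.14 and 0.10. Batch 3, which holds the replicate that the study left out, thus gave the smallest difference as deposited. Its scaled median was near 0 but below that of all entries. That scaled value depends on the total of double mutant replicate 3, which holds *Y53H1C.11* at 43891.5 FPKM. In the 8-library comparison, all 9 tested germline markers were lower in *daf-1* mutants than in double mutants, whose germline sums were 2157 to 3095 FPKM over 3 libraries. Markers of molting epidermis were higher in *daf-1* mutants for 7 of 9 and pharynx markers for 6 of 6. The molting sums were 264.7 to 306.7 FPKM in *daf-1* mutants and 80.9, 97.6 and 363 FPKM in double mutant replicates 1, 2 and 3. The pharynx sums were 194.5 to 264.7 FPKM against 88.1, 129.2 and 290.3 FPKM. Double mutant replicate 3, which is not in that fit, thus lay above all *daf-1* libraries in both lists. The part of these tissues in the ribosomal protein levels was not tested.

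*daf-1*; *daf-3* double mutants also had higher ribosomal protein transcript levels than N2, which shares those double mutant libraries with the preceding comparison. In the 8 libraries 13 of 60 genes were higher and none was lower, where 7.49% of entries were called higher and 8.9% lower. All 60 differences were above 0, with a median of 0.44 against 0.02 over all entries. The 13 genes were 6 of the large and 7 of the small subunit, and neither stalk gene passed. No gene reached a 2-fold difference, which 8.9% of entries did.

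*rpl-29*, a short protein of the large subunit, differed most, by 0.65 (SE 0.143, adjusted p = 0.0172). It was measured at 662, 769.7 and 574 FPKM in N2 and at 1022, 1066 and 578 FPKM in double mutants. *rps-28*, a short protein of the small subunit, was measured at 1193, 1373 and 1003 FPKM in N2 and at 1730.3, 1873 and 1034 FPKM in double mutants (0.61, SE 0.153, adjusted p = 0.0282). Replicates 1 and 2 of the double mutant were above all N2 libraries for both genes, and replicate 3 was close to N2 replicate 3.

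*rpl-39* was measured at 3369, 3064 and 2514 FPKM in N2 and at 4374, 4656 and 2529 FPKM in double mutants (0.61, SE 0.165, adjusted p = 0.0377). *rps-14* was measured at 721, 716 and 618 FPKM in N2 and at 928, 1034 and 639 FPKM in double mutants (0.52, SE 0.118, adjusted p = 0.0198). Differences of *rpl-14*, *rpl-32*, *rpl-36* and *rps-19* ranged from 0.49 to 0.54. Mutations of the human counterpart of *rps-19* are known from Diamond-Blackfan anemia. *rpl-11.2* had the second largest difference, 0.65, but did not pass (SE 0.192, adjusted p = 0.0517). The smallest differences were those of *rpl-24.2* (0.12), *rpl-7A* (0.15) and *rps-13* (0.18), none of which passed the test.

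After scaling, 8 of the 13 genes were still called higher and no other was, with a median of 0.20 against -0.21 over all entries, and 4.28% of entries were called higher and 17.4% lower. Quantile normalization left *rpl-29* as the 1 gene called higher, called *rpl-7A* lower, and turned the median to -0.02. Of all entries 7.14% were then called higher and 9.18% lower. As above, that method can even out a shift shared by the set. With all 9 libraries no gene was called before or after scaling, the median was 0.29 and 0.10, and 4.58% and 6.18% of entries were called. At an unadjusted p below 0.05 there were 3 and 1 of the 60 genes with limma, against 16.8% and 28.1% of entries. With the replicate number as a block in the 8-library fit, 42 genes were called higher, the 13 among them, with a median of 0.36, where 7.47% of entries were. Leaving out double mutant replicate 2 left no call, leaving out N2 replicate 3, *daf-1* replicate 1 or double mutant replicate 1 left 3, leaving out N2 replicate 1 left 6, and leaving out *daf-1* replicate 2 or 3 left 7. These fits called 4.18 to 6.61% of entries higher. Without N2 replicate 2 the count rose to 17, with a median of 0.53, where 6.02% of entries were called higher. Within batches 1, 2 and 3 the median was 0.33, 0.35 and 0.19, and 0.13, 0.18 and -0.01 after scaling. Over all entries the scaled medians were -0.18, -0.20 and -0.17. Markers of molting epidermis were lower in double mutants than in N2 for 6 of 9 genes (218.1 to 370.1 FPKM in N2), and 1 of 9 germline markers was higher. Their part in the ribosomal protein levels was not tested.

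**Figure D4:**
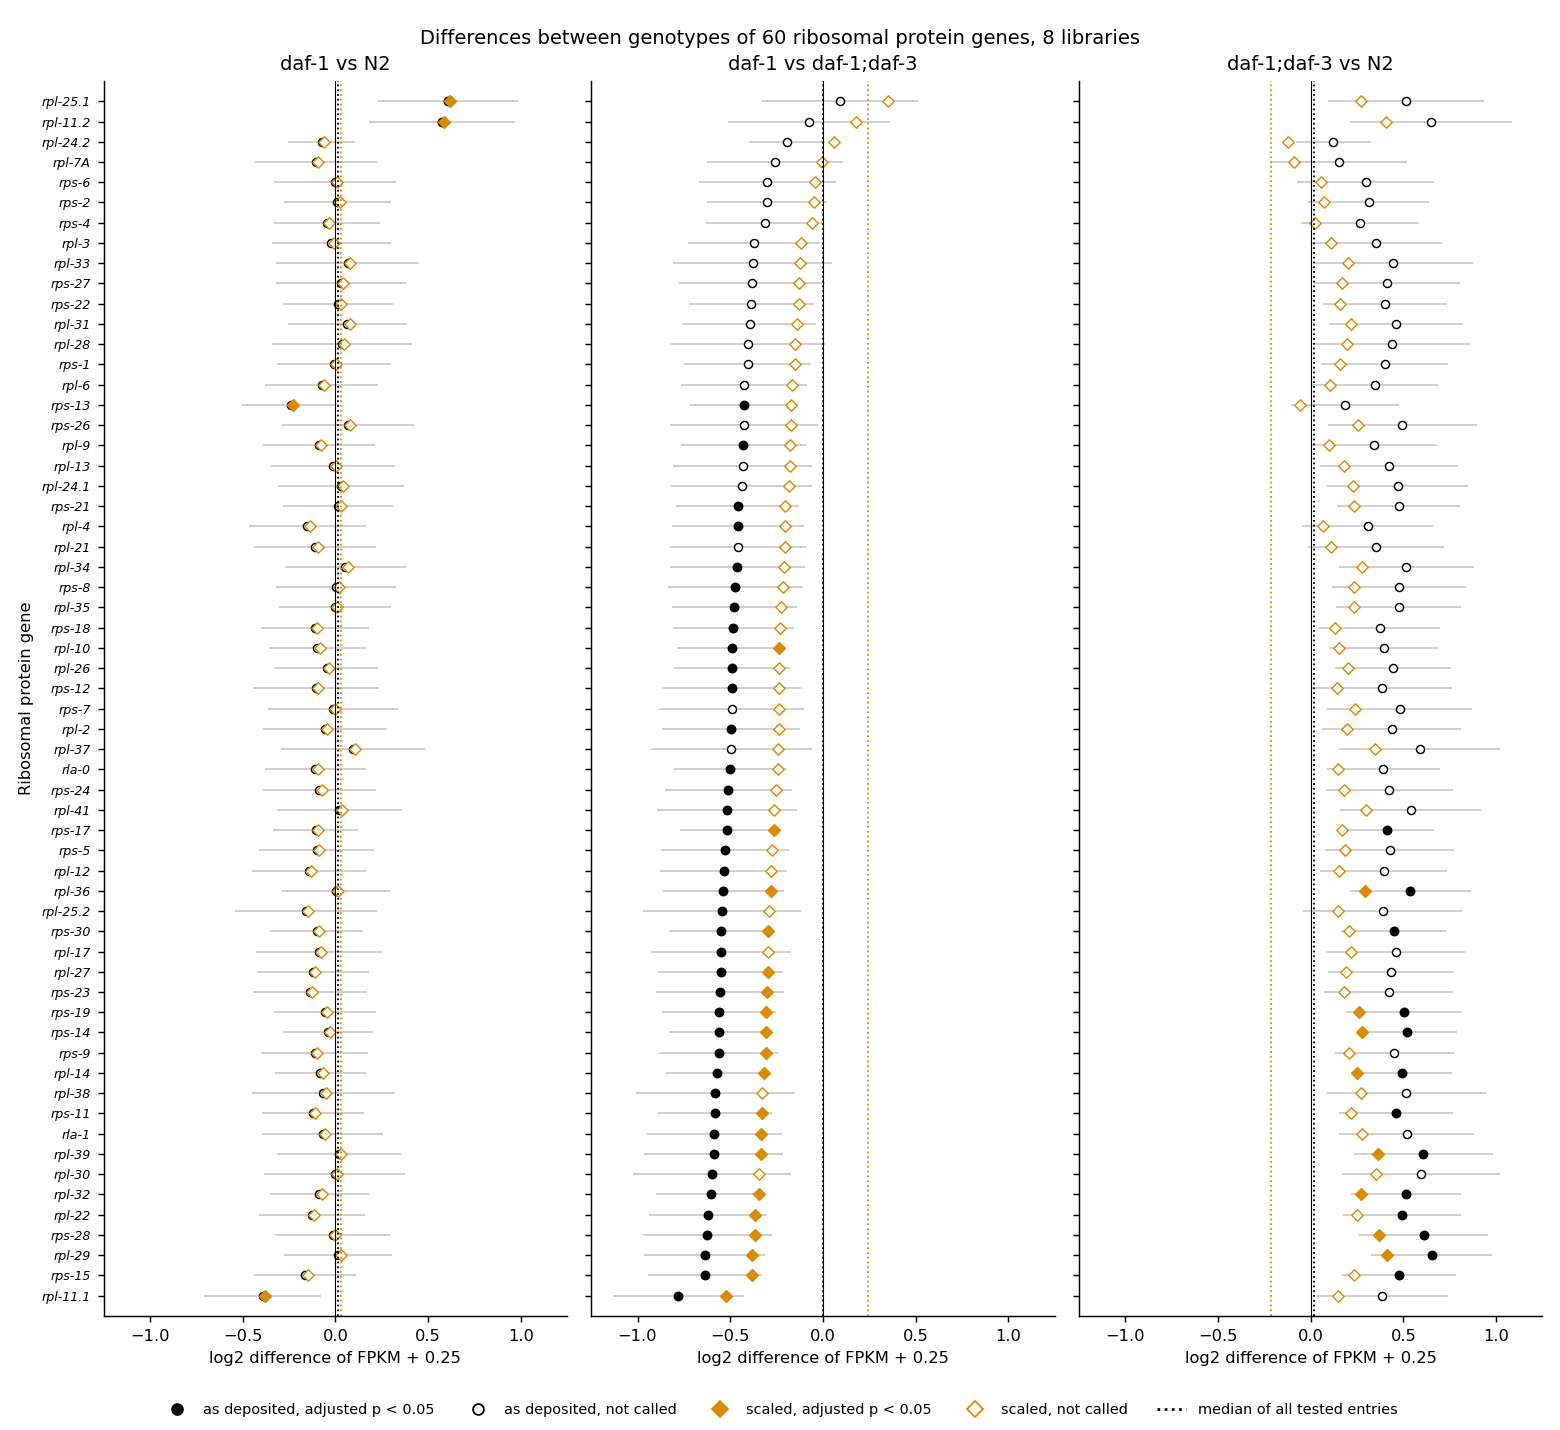
Differences between genotypes of the 60 tested ribosomal protein genes in 8 libraries. Circles are log2 differences of FPKM as deposited with their 95% intervals, diamonds are those after scaling to the same FPKM total, filled symbols passed an adjusted p of 0.05, and dotted lines mark the median of all tested entries in black as deposited and orange scaled. In the middle panel the medians are -0.49 as deposited and -0.24 scaled, with 39 and 19 genes called, and *rpl-25.1* and *rpl-11.2* stand apart in the left panel.

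Levels were also compared between batches. Each batch holds 1 library of each genotype, and with genotype in the model batch 3 was lower than batches 1 and 2 for 57 of 60 genes, with a median log2 difference of -0.32, or -0.17 after scaling and -0.02 after quantile normalization. None of the genes passed the adjusted p with limma, where 0.0216% of entries did. An unadjusted p below 0.05 was reached by 57 genes as deposited, 30 after scaling and 4 after quantile normalization, against 31.9%, 28.1% and 27.4% of entries. Here too quantile normalization can even out a shift shared by these genes. Without *daf-1* replicate 3, 35 genes were called lower, where 2.53% of entries were called lower and 9.11% higher. The median log2 difference of batch 3 from batch 2 was -0.39 in N2, -0.28 in *daf-1* mutants and -0.55 in double mutants. From batch 1 it was -0.25, -0.07 and -0.37. After scaling the differences from batch 1 were -0.10, 0.01 and -0.21, and in *daf-1* mutants 34 of 60 genes were then above batch 1. The deviation of the median gene from its own mean over 9 libraries ran from -0.29 in N2 replicate 3 to 0.44 in double mutant replicate 2 on the log2 scale, and from -0.13 in double mutant replicate 3 to 0.25 in double mutant replicate 2 after scaling.

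Most genes rose and fell together over the libraries. The log2 level of *rpl-2*, a protein near the peptidyl transferase center, had a Pearson correlation of 0.991 with the mean of the other genes over the 9 libraries, which share depth and batch, and *rpl-6* and *rps-19* had 0.990 each. The least alike were *rpl-25.1* at 0.230, *rpl-11.2* at 0.281 and *rpl-24.2* at 0.285. After scaling, these were -0.10, -0.05 and -0.54, while *rpl-2* kept 0.967. The least alike gene was thus *rpl-25.1* as deposited and *rpl-24.2*, which lies on chromosome I, after scaling.

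**Figure D5:**
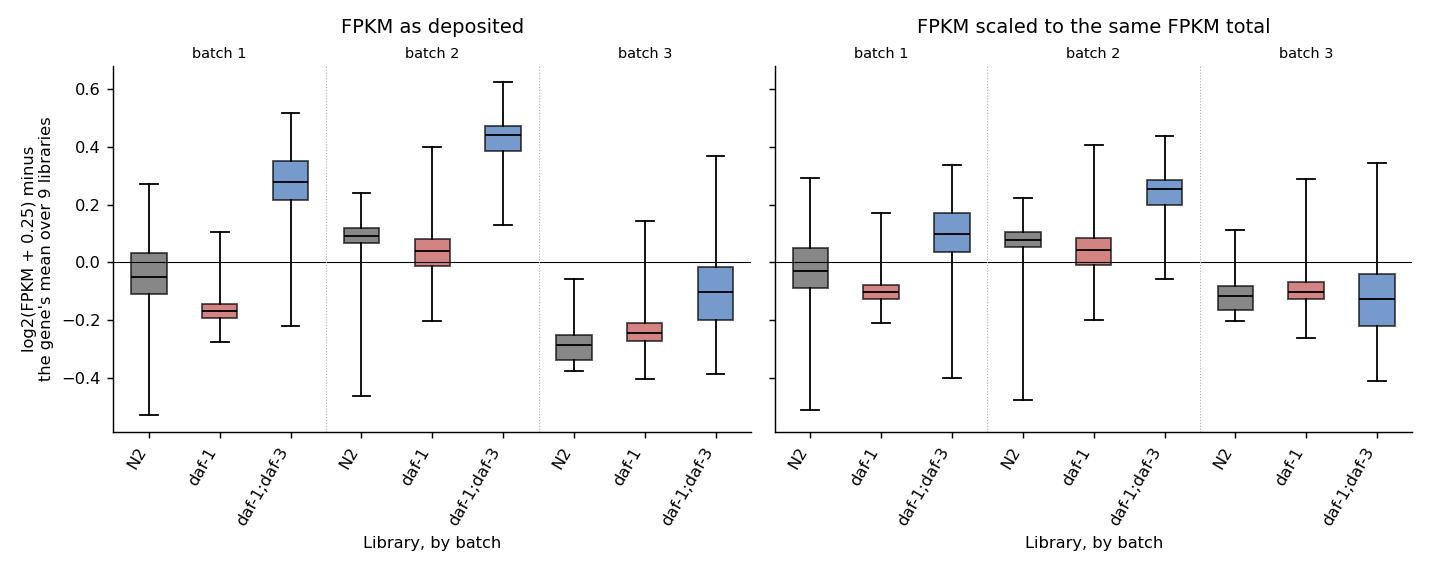
Deviation of the 60 tested ribosomal protein genes from their own mean over 9 libraries, on the log2 scale, for each library ordered by batch. Boxes give the middle and quartiles over genes and whiskers the full range, for FPKM as deposited (left) and scaled to the same total (right). In batches 1 and 2 the double mutant is highest, while in batch 3 all genotypes lie low, with medians of -0.29 in N2, -0.24 in *daf-1* and -0.10 in *daf-1*; *daf-3* as deposited.

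The joined entries that name other ribosomal protein genes showed similar values. Of 18 such entries, none was called between *daf-1* and N2, where 28.6% of all entries were. In *daf-1* mutants 11 were lower than in double mutants, with a median of -0.49, where 19.3% of all entries were. In double mutants 3 were higher than in N2, with a median of 0.39, where 7.49% of all entries were. The entry that holds *rla-2*, the third stalk gene, joined with *agt-1* and *rec-8*, was called in both of the latter comparisons (-0.55, SE 0.125, adjusted p = 0.0145, and 0.53, SE 0.125, adjusted p = 0.0233). *ubl-1*, which encodes a ubiquitin-like fusion to a ribosomal protein, differed by 0.15, -0.33 and 0.47 in the 3 comparisons and passed in none.

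Other genes of the translation machinery were counted in the same 8-library fit between *daf-1* and N2, where 15.6% of all entries were called lower and 13% higher. Of the mitochondrial ribosomal protein genes, which serve a separate ribosome, 13 of 37 tested were lower in *daf-1* mutants and none was higher, with a median log2 difference of -0.27. *mrpl-22* fell from a mean of 36.1 to 27.7 FPKM (-0.38, SE 0.0751, adjusted p = 0.0112) and *mrpl-14* from 80.5 to 63.3 FPKM (-0.34, SE 0.0866, adjusted p = 0.0239). Of the initiation factor genes 8 of 18 were lower, with a median of -0.28. Of these, *ife-5*, an eIF4E family member that binds the mRNA cap, fell from 14.5 to 7.16 FPKM (log2 difference -0.995, SE 0.106, adjusted p = 0.000584) and *egl-45*, a subunit of eIF3, from 157 to 119.8 FPKM (-0.38, SE 0.0891, adjusted p = 0.0189).

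Of 13 genes for ribosome assembly and ribosomal RNA synthesis, 8 were lower in *daf-1* mutants than in N2, with a median of -0.35. *nol-5*, a core protein of the snoRNA particles that methylate ribosomal RNA, fell from 198 to 150.5 FPKM (-0.39, SE 0.0943, adjusted p = 0.0206). *rpoa-2*, the second largest subunit of RNA polymerase I, fell from 30.0 to 22.8 FPKM (-0.40, SE 0.0956, adjusted p = 0.0209). Elongation and termination factors were lower for 1 of 5, *eef-2*, which moves the ribosome along the mRNA, and TOR pathway genes for 1 of 4, *daf-15*, the worm counterpart of Raptor. Nonsense-mediated decay genes were lower for 3 of 9 and higher for 1, *smg-6*. The counts after scaling were 15 of 37 for mitochondrial ribosomal proteins, 11 of 18 for initiation factors and 8 of 13 for assembly genes. Of all entries 15.2% were then called lower. With all 9 libraries the counts were 1, 1 and 0, where 3.1% of all entries were called lower. The lists were not tested against the ribosomal proteins.

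Between *daf-1* and *daf-1*; *daf-3*, 19.3% of all entries were lower in *daf-1* mutants. Called lower in these lists were 30 of 37 mitochondrial ribosomal protein genes (median -0.44), 13 of 18 initiation factor genes (median -0.40), 7 of 13 assembly genes (median -0.33), 2 of 5 elongation and termination factors and 2 of 4 TOR genes. *pab-2*, a poly(A)-binding protein gene of the initiation list, was called higher. After scaling, where 2.97% of entries were lower, the counts called lower were 6, 0, 0, 1 and 0. With all 9 libraries they were 0 in each, where 0.856% of entries were lower. Between *daf-1*; *daf-3* and N2 the medians were 0.18, 0.08 and 0.02 for the first 3 of these groups, against 0.44 for the cytosolic ribosomal protein genes, and 1, 0 and 0 genes were called higher. In that comparison *ife-5*, *pab-2* and *ife-4* were the 3 initiation factor genes called lower, by -0.90, -0.53 and -0.50. Of all entries 7.49% were called higher there and 8.9% lower.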

How the data were processed

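Per the submitters' processing notes and the study's methods, the tools were bcl2fastq 1.8.4 for demultiplexing, Trim Galore 0.4.0 for trimming, TopHat2 2.0.12 for alignment (genome WBcel235) and Cufflinks for quantification, with version 2.21 given in the notes. The deposited table holds the FPKM values that the authors computed for each library, untransformed. Of 40313 entries, 186 name no gene (0.0502 to 0.257% of a library's FPKM) and were left out. Read counts were not used here, so the spread between libraries is the only measure of precision, and transcripts shared by paralogs may have been divided between them by the software.

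Entries with at least 0.5 FPKM in at least 2 libraries (13751 in 8 libraries, 13907 in 9) were fitted in R 4.3.3 with the package limma 3.58.1. The fit used log2(FPKM + 0.25), 3 genotypes in 1 fit without a batch term, with a variance trend. Called means p below 0.05 after Benjamini-Hochberg adjustment, which covered every tested entry. Fold changes are on that scale. The script was tested on simulated data. Scaling set each library's FPKM total to 1e+06. Ratios of paralogs were compared by exact permutation.

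The ribosomal protein genes and the lists were chosen with earlier results of these data known. Named genes are those called before and after scaling (at most 8 of the smallest p a comparison), the 3 largest and 3 smallest differences, the 5 highest and 5 lowest levels, stalk genes, numbered paralogs, the untested gene, the 3 most and 3 least alike over libraries, and up to 3 of each other list by p, of which some are given. *rps-4*, *rpl-3*, *rps-6* and *ubl-1* were named for a count or extreme after their values were seen.

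Replicate numbers pair the libraries because the study calls them batches. Deviations of same-numbered libraries from their genotype means correlated at 0.0868 to 0.520 over entries.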

Additional observations from a re-analysis of the deposited data

How the results depend on the processing

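In 8 libraries as deposited, 2, 39 and 13 ribosomal protein genes were called. The first count is for *daf-1* vs. N2, the next for *daf-1* vs. the double mutant and the last for the double mutant vs. N2, an order that is kept below. Scaled to the same FPKM total they were 4, 19 and 8, with median log2 differences of -0.24 and 0.20 for the next and the last. After quantile normalization they were 8 (2 higher, 6 lower), 7 (2 higher, 5 lower) and 2 (1 each way), with medians of -0.082 and -0.023. The batch median was -0.021, and *rps-19* turned to -0.011 between the double mutant and N2. That method can even out a shift shared by the set, so these values cannot show whether the set moved together. Without a filter on low values, where more entries are tested, the counts were 1, 23 and 3, against 17, 22.8 and 9.3% of entries. With all 9 libraries, or with a 2-fold minimum, they were 0, 0 and 0. For 9 libraries the last median was 0.29, and after scaling the counts were again 0, 0 and 0, with medians of -0.14 and 0.10. With replicates 1 and 2 alone the counts were 1, 28 and 3, against 13.2, 23.7 and 9.96% of entries. After scaling they were 1, 4 and 0, against 9.79, 19.7 and 12.5%, with medians of -0.21 and 0.15. The first was a gene called lower in both cases. Without a variance trend the first count was 0 and the last 5, against 18.4 and 14.8% of entries. With only the libraries of its own genotypes the last was 1, against 11% of entries.

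With the replicate block in 8 libraries, 4, 52 and 42 genes were called, against 36.4, 32.3 and 15.9% of entries. After scaling the block gave 4, 22 and 10, against 36.1, 23.3 and 22.3%, with medians of -0.20 and 0.16. In 9 libraries the block gave 2 for the next and 7 for the last comparison, against 2.62 and 5.75% of entries. The last median was 0.29. After scaling these counts were 0 and 1, against 2.7 and 11.6% of entries, with medians of -0.14 and 0.10.

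Leaving out 1 N2 or *daf-1* library at a time gave 0 to 5, 7 to 48 and 3 to 17 calls. These stood against 8.7 to 38, 14.1 to 40.7 and 12.5 to 16.2% of entries. The calls without a double mutant library, which leaves n = 1 there, stand above. Leaving out any 1 library gave medians of -0.15 to 0.02, -0.56 to -0.41 and 0.34 to 0.53. For the batches it gave 0 to 35 calls, against 0 to 11.6% of entries, and medians of -0.38 to -0.25. Counting the joined entries, the mean shares of the FPKM total were 15.6% in N2, 15.2% in *daf-1* mutants and 17.7% in *daf-1*; *daf-3* (replicates 1 and 2). Among the values of single genes, 258 alternatives stayed on their side of the threshold, 173 kept their direction and lost the call, and 1 turned, that of *rps-19*. The fits with replicates 1 and 2 alone and the scaled fits with the block were chosen after seeing the data. The causes were not tested. FPKM without read numbers allows no counting interval, and the double mutant rests on 2 libraries.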
